A study of Mus musculus with 8 samples.

Results

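Genes of the lysosome were examined in J774A.1 cells, a mouse macrophage line, that had been given lipopolysaccharide (LPS), an activator of macrophages from bacterial cell walls, alone or together with ursodeoxycholic acid (UDCA), a secondary bile acid. A set of 47 genes was taken by symbol from the 55487 genes of the deposited table. It holds 11 cathepsins, 16 subunits and accessory proteins of the vacuolar ATPase (V-ATPase), 11 hydrolases and other lumenal proteins, 6 membrane proteins and the 3 transcription factors Tfeb, Tfe3 and Mitf. RNA was sequenced in 4 libraries with LPS and 4 with LPS + UDCA, all from cells harvested after 24 h. By the study's methods LPS was used at 1 μg/mL and UDCA at 1 mM, so that the controls carry LPS as well. No library without LPS and none with UDCA alone was analysed here, and the values compare levels under LPS. J774A.1 is a single line. The labels do not say whether the replicates were separate cultures, so p-values measure the spread between these libraries, which may be technical.

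Lysosomes break down material taken up by endocytosis and phagocytosis or delivered by autophagy. In macrophages they are the end station for bacteria and dead cells. Their enzymes work at acidic pH, which the V-ATPase maintains: its cytosolic V1 part splits ATP and its membrane V0 part carries protons into the lumen. TFEB, TFE3 and MITF are related transcription factors that bind the E-box CACGTG in the promoters of many lysosomal genes. They are held in the cytoplasm when the kinase mTORC1 phosphorylates them at the lysosomal surface.

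Values are in TPM, a transcript abundance scaled to gene length and to the library, so that levels of different genes can be set side by side. Where 4 values are given for a group, they stand in the order of replicates 1 to 4. The libraries summed to between 958918 and 977485 TPM. The number of reads is unknown, so precision is given by the spread of 4 libraries. Of the 10 macrophage markers examined, 9 reached a mean of 1 TPM and Mertk was listed at 0 in every library. Their summed level was 3697 to 3939 TPM with LPS and 1879 to 2130.2 TPM with LPS + UDCA. Of the 9 tested, 4 were higher at FDR (Adgre1, Ptprc, Spi1 and Fcgr1) and 4 lower (Csf1r, Itgam, Lyz2 and Cd14). The lower sum was mostly Lyz2. The largest fall was that of Itgam, an integrin subunit (limma log2 fold change -2.91, adjusted p = 5.2e-09). Lyz2, which encodes lysozyme, fell (limma log2 fold change -2.19, adjusted p = 1.3e-09), and Adgre1, which encodes F4/80, rose (limma log2 fold change 1.27, adjusted p = 4.6e-07). The part of these shifts in the lysosomal genes was not tested. The 24 markers of T cells, B cells, neutrophils, epithelium, fibroblasts and endothelium summed to 1.11 to 1.38 TPM with LPS and 0.09 to 0.62 TPM with LPS + UDCA, and none of them reached a mean of 1 TPM. Fewer cells of a kind and less RNA per cell cannot be told apart in bulk RNA.

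More of the lysosomal genes were lower than higher with LPS + UDCA, and the classes differed in their counts. Of the 44 genes that reached a mean of 1 TPM and were tested, 25 were lower and 10 higher at a false discovery rate (FDR) under 0.05 from limma, which is 56.8% and 22.7% of them. Over all 11796 genes tested, 32.3% were lower and 40.2% higher by the same rule. In either direction 35 of the 44 passed (79.5%), against 72.5% of all genes. The study's threshold asks for a fold change of at least 2 in addition, and it was applied here to the limma fit. By this rule 5 were lower, namely Ctsf, Man2b1, Neu1, Cd68 and Gpnmb (11.4% of 44 against a background of 8.44%). Only Atp6v0d2 was higher (2.27% against 8.71%). Over all genes 17.1% passed in either direction. The study, with its own analysis, reported more genes past this threshold in each direction. The median log2 fold change, on the log2(TPM + 1) scale used throughout, was -0.27 for the 44 genes and 0.08 over all genes tested. The TPM of the groups did not overlap for 33 of the 44 genes, against 66.8% of all genes. Each of these 33 had p = 0.029 in a two-sided exact permutation test, the smallest p that 4 against 4 libraries allow. Together the 47 genes took 1.12% to 1.14% of the total TPM of the LPS libraries and 0.848% to 0.873% of that of the LPS + UDCA libraries. TPM are shares of a library. The most abundant gene, Fth1, which encodes ferritin heavy chain, took 23438 to 24358 TPM with LPS and 35719 to 37881 TPM with LPS + UDCA.

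**Figure D1:**
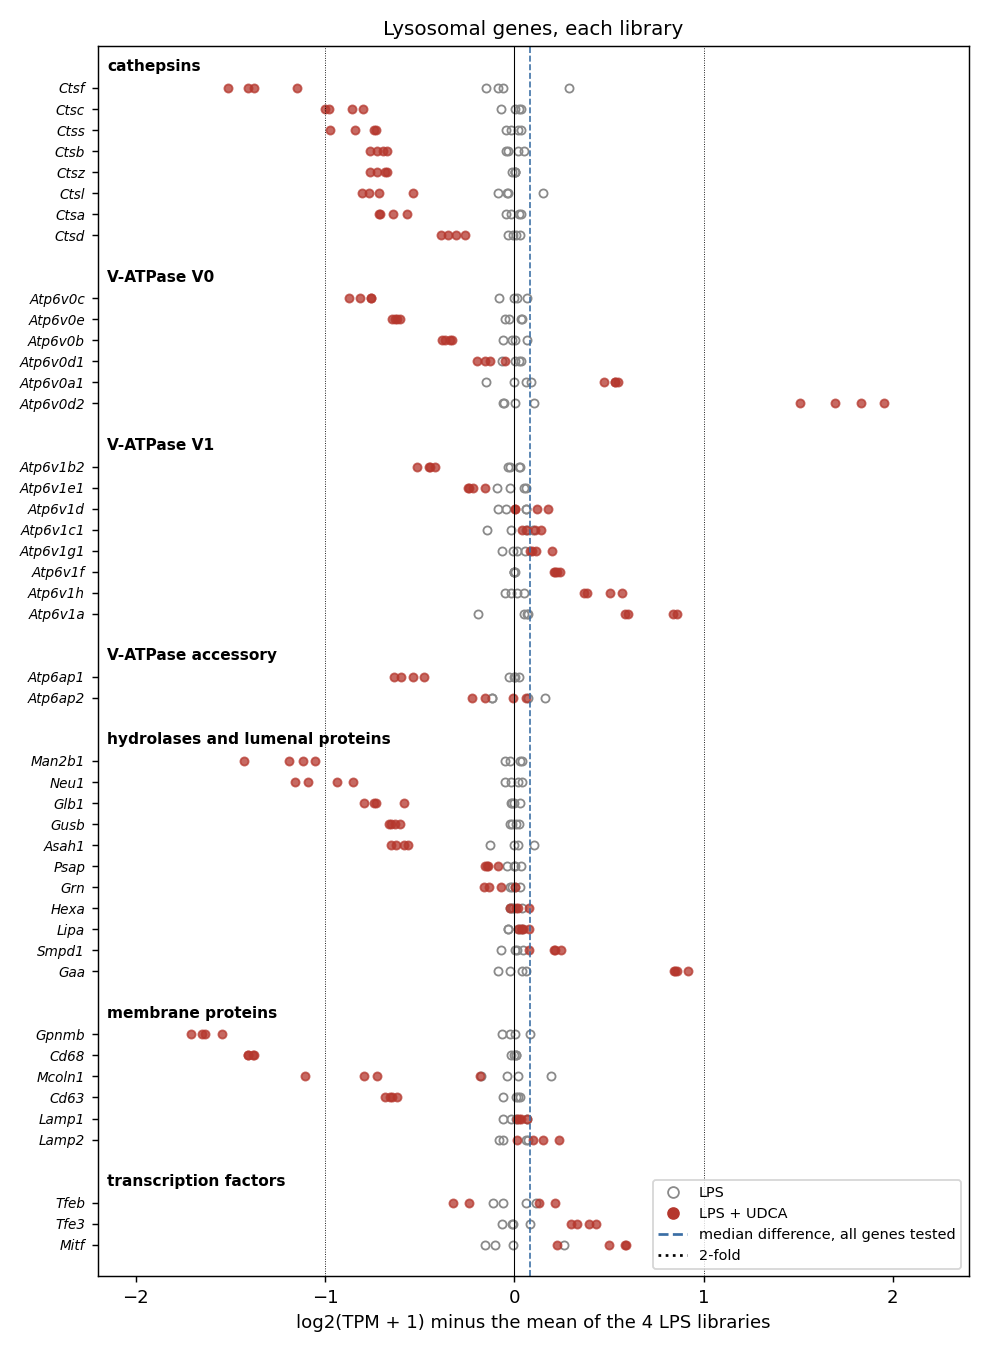
Each of the 44 tested genes in each of the 8 libraries, as log2(TPM + 1) minus the mean of the 4 LPS libraries, with LPS libraries as open grey circles, LPS + UDCA libraries as filled red circles and dotted lines at a 2-fold change. All 8 tested cathepsins lie to the left of the LPS libraries, the V-ATPase genes lie on both sides, and Atp6v0d2 stands furthest to the right at 1.75.

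Of the 3 transcription factors, 2 were higher at FDR and 1 did not pass, in a table where 40.2% of all genes were higher. Tfe3, on chromosome X from 7762560 to 7775202 of GRCm38, was the most abundant of them. Its levels were 46.7, 43.6, 42.1 and 43.7 TPM under LPS and 58.3, 59.6, 54.5 and 55.7 TPM under LPS + UDCA. Every LPS + UDCA library lay above every LPS library, and Tfe3 rose (limma log2 fold change 0.37, SE 0.048, adjusted p = 9.5e-05). Mitf lies on chromosome 6 from 97807052 to 98021349 and had 5.50, 4.06, 3.87 and 4.39 TPM under LPS and 5.33, 7.14, 7.15 and 6.68 TPM under LPS + UDCA. Mitf rose as well (limma log2 fold change 0.48, SE 0.12, adjusted p = 0.0058), although LPS + UDCA replicate 1 lay below LPS replicate 1 and the groups thus overlapped. Tfeb lies on chromosome 17 from 47737030 to 47792419 and had 5.31, 4.58, 5.07 and 4.38 TPM under LPS and 5.37, 5.77, 3.93 and 3.65 TPM under LPS + UDCA. The LPS + UDCA libraries lay both above and below the LPS libraries, and no difference was detected for Tfeb (limma log2 fold change -0.05, SE 0.13, adjusted p = 0.73, 95% interval -0.36 to 0.25). The Tfeb estimate was above 0 without LPS + UDCA replicate 3 or 4 (0.0074 and 0.0355). These are levels of mRNA, and the location or phosphorylation of the proteins was not measured. The remaining factor of the family, Tfec, was listed at 0 in all 8 libraries.

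The E-box bound by these factors was looked for in promoters, to show which of the genes carry it. RefSeq windows from 250 bases before to 50 bases after a start site (GRCm38.p6) were at hand for 39 of the 47 genes, in 48 windows, and not for Asah1, Atp6v0d2, Atp6v1b2, Atp6v1c1, Atp6v1g1, Atp6v1h, Ctsb and Ctsh. CACGTG, which reads the same on both strands, occurred in the windows of 12 of the 39 genes (30.8%), against 8.09% of the 27025 genes in the table and 7.15% of its 32851 windows. The longer palindrome TCACGTGA, which contains it, occurred in 6 of the 39 (15.4%), against 1.12% of all genes, and GTCACGTGAC, which contains both, in 0 of the 39, against 0.37%. The 27025 genes were not chosen to resemble the set in expression or base content. Several matches are printed here with 10 bases on either side and CACGTG in capitals, on the strand of the gene and in order from the lowest to the highest log2 fold change, because genes that fell and genes that rose both carry the E-box.
Ctsf, chr19:4855076-4855101, + strand: ccccgtggtcCACGTGcctcgcgtaa
Glb1, chr9:114401020-114401045, + strand: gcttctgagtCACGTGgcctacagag
Mcoln1, chr8:3500464-3500489, + strand: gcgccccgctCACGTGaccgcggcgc
Ctsa, chr2:164833768-164833793, + strand: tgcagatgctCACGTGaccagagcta
Atp6v0e, chr17:26676389-26676414, + strand: gcgcgccgatCACGTGagcctctgtt
Ctsd, chr7:142387910-142387935, - strand: gcccgcgtctCACGTGacccgttgag
Atp6v0d1, chr8:105566052-105566077, - strand: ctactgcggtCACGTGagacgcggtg
Atp6v1a, chr16:44139375-44139400, - strand: ttttttaaatCACGTGataggcttaa
Gaa, chr11:119267813-119267838, + strand: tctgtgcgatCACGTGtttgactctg
The window of Lamp1 held 4 copies, the most of any gene here, and is shown whole because Lamp1 did not pass FDR (limma log2 fold change 0.04, adjusted p = 0.36).
Lamp1, chr8:13158911-13159210, + strand: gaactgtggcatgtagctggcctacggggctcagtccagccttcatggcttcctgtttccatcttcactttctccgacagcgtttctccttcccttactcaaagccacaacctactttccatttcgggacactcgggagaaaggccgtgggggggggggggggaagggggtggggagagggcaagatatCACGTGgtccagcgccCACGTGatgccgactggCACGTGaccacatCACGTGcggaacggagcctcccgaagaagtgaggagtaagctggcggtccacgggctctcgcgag
Of the 12 genes with CACGTG, all of them tested, 9 were lower and 2 higher at FDR (median log2 fold change -0.49). Of the 25 other tested genes with a window, 13 were lower and 5 higher (median -0.13). Over all genes 32.3% were lower and 40.2% higher, with a median of 0.08. Both groups of genes ran from falls of more than 2-fold to rises, from -1.36 (Ctsf) to 0.87 (Gaa) with the E-box and from -1.63 (Gpnmb) to 0.52 (Atp6v0a1) without it. The groups also differ in class. Ctsf, Ctsl, Ctsa and Ctsd and the V0 genes Atp6v0e, Atp6v0b and Atp6v0d1 carry the E-box, while Ctsc, Ctss and Ctsz do not. The E-box is thus mixed with class, and a difference between the groups was not tested. Calls over all genes with CACGTG were not counted. A match of letters is not evidence of binding, and no binding was measured.

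Cathepsins are proteases of the lysosome. All 8 that were tested were lower at FDR, against 32.3% of all genes, with a median log2 fold change of -0.71. Their groups did not overlap, which held for 66.8% of all genes. Summed over the 11 cathepsins, the level was 3918 to 4023 TPM under LPS and 2557 to 2702 TPM under LPS + UDCA. Ctsd, the aspartic protease, was among the 3 most abundant of the 47 genes. It lies on chromosome 7 from 142375911 to 142388038 and had 1050.0, 1034, 1024 and 1003 TPM under LPS and 829, 858, 806 and 786 TPM under LPS + UDCA. Of the tested cathepsins Ctsd had the smallest fall (limma log2 fold change -0.33, SE 0.033, adjusted p = 1.7e-05). Ctsz, a cysteine carboxypeptidase on chromosome 2 from 174427493 to 174439039, had 878, 881, 879 and 870.2 TPM under LPS and 529.5, 549, 547 and 517 TPM under LPS + UDCA. Its fall was close to the median of the class (limma log2 fold change -0.71, SE 0.028, adjusted p = 5e-08). Ctsf, a cysteine protease on chromosome 19 from 4855130 to 4860918, was the only cathepsin past 2-fold. Its levels were 20.2, 21.6, 21.2 and 27.8 TPM under LPS and 9.63, 7.89, 7.24 and 8.08 TPM under LPS + UDCA, with LPS replicate 4 above the other LPS libraries. The fall of Ctsf was the largest in the class (limma log2 fold change -1.36, SE 0.11, adjusted p = 4.5e-06).

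The other 5 tested cathepsins fell by similar amounts, with log2 fold changes from -0.91 for Ctsc, which activates serine proteases by trimming them, to -0.66 for Ctsa, a serine carboxypeptidase. Between them lay Ctss (-0.82), which cleaves the invariant chain of MHC class II, Ctsb (-0.71) and Ctsl (-0.71), both broadly acting cysteine proteases. With LPS the order of mean levels was Ctsd, Ctsz, Ctsb, Ctsa, Ctsl, Ctss, Ctsc and Ctsf. The neighbours Ctsb (732 to 782 TPM) and Ctsa (713 to 754 TPM) overlapped. With LPS + UDCA Ctsa (447 to 496 TPM) and Ctsb (444 to 473 TPM) overlapped likewise. The other neighbours did not overlap in either group. The gene Gm49369 overlaps Ctsd on the same strand and Gm47123 overlaps Ctsl on the other. Of the 31-base words in the transcripts of Ctsd and Ctsl, 33.2% and 28.2% also occur in transcripts of other genes, so the division of reads there is uncertain.

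The remaining 3 cathepsins were too low to be tested. Ctsk, the collagen-degrading cathepsin of osteoclasts, had 1.04, 0.81, 1.35 and 1.04 TPM under LPS and 0.46, 0.41, 0.29 and 0.20 TPM under LPS + UDCA, without overlap between the groups. In a fit of all genes listed above 0 it was lower with LPS + UDCA (limma log2 fold change -0.62, adjusted p = 0.0014), while Ctsh and Ctso did not pass (limma adjusted p = 0.59 and 0.32). Ctsh ranged from 0.10 to 1.15 TPM and Ctso from 0.63 to 1.30 TPM over the 8 libraries.

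Hydrolases of glycans and lipids were divided. Of 11 genes of lumenal proteins, 6 were lower and 2 higher at FDR (54.5% and 18.2%, against 32.3% and 40.2% of all genes), with a median log2 fold change of -0.13. The share called in either direction, 72.7%, was that of all genes (72.5%). Both of those past 2-fold were glycosidases that fell. Man2b1, an alpha-mannosidase on chromosome 8 from 85083270 to 85098282, had 11.9, 11.3, 11.1 and 11.8 TPM under LPS and 3.65, 5.02, 4.76 and 4.48 TPM under LPS + UDCA. This was the largest fall among the lumenal proteins (limma log2 fold change -1.20, SE 0.089, adjusted p = 2.3e-06). Neu1, a sialidase on chromosome 17 from 34931253 to 34935953, had 64.6, 63.8, 62.1 and 60.6 TPM under LPS and 32.3, 34.3, 29.0 and 27.6 TPM under LPS + UDCA. Every LPS + UDCA library of both genes lay below every LPS library. Neu1 fell to 0.491 times its mean TPM with LPS (limma log2 fold change -1.01, SE 0.068, adjusted p = 1.3e-06). It lay at the 2-fold line and was short of it without LPS replicate 1 (-0.995) or without LPS + UDCA replicate 3 (-0.98) or 4 (-0.96). It was also short of it with TPM rescaled to a common sum (-0.99), and 4 genes were then lower by 2-fold. NEU1 works in a complex with the beta-galactosidase GLB1 and with cathepsin A, and Glb1 (limma log2 fold change -0.71, adjusted p = 3e-06) and Ctsa (limma log2 fold change -0.66, adjusted p = 5.9e-07) were lower too.

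Gaa, the acid alpha-glucosidase that degrades glycogen in lysosomes, went the other way. It lies on chromosome 11 from 119267887 to 119285454 and had 67.2, 66.2, 63.4 and 60.6 TPM under LPS and 117, 117, 123 and 116 TPM under LPS + UDCA. All LPS + UDCA libraries were above all LPS libraries. Gaa rose to 1.84 times the mean TPM (limma log2 fold change 0.87, SE 0.042, adjusted p = 1.8e-07). Smpd1, the acid sphingomyelinase, was 0.19 higher on the log2 scale (limma adjusted p = 0.014), a call lost with median-of-ratios scaling. Gusb (-0.64), a beta-glucuronidase, and Asah1 (-0.60), the acid ceramidase, fell by similar amounts. Psap, the precursor of the saposins that help lipids to reach their enzymes, fell little (limma log2 fold change -0.13, adjusted p = 0.0038), a call lost with quantile normalization. For Hexa, a beta-hexosaminidase subunit (0.02, 95% interval -0.05 to 0.09), Lipa, the acid lipase (0.05, -0.04 to 0.13), and Grn, which encodes progranulin (-0.09, -0.17 to -0.0018), no difference passed FDR. The sign of Hexa and Lipa turned with median-of-ratios scaling, with which Grn was lower at FDR (-0.17). The sign of Grn turned with quantile normalization, with which Hexa was higher at FDR (0.12). Levels of these 11 genes with LPS ran from 11.5 TPM for Man2b1 to 512 TPM for Grn.

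Among membrane proteins, Gpnmb and Cd68 fell most, and neither of the LAMP genes, which encode the main structural glycoproteins, passed FDR. Gpnmb, a transmembrane glycoprotein and known target of MITF-family factors, lies on chromosome 6 from 49036546 to 49070929. It had 146, 136, 132 and 139 TPM under LPS and 43.8, 41.6, 46.7 and 43.4 TPM under LPS + UDCA. No other of the 44 genes had so large a fall (limma log2 fold change -1.63, SE 0.048, adjusted p = 9.6e-09). Cd68, or macrosialin, a heavily glycosylated protein used as a macrophage marker, lies on chromosome 11 from 69664213 to 69666153. Its values were 545, 546, 540.1 and 536 TPM under LPS and 204, 208, 207 and 204 TPM under LPS + UDCA (limma log2 fold change -1.39, SE 0.025, adjusted p = 7.4e-10). In both genes the libraries of a group lay close together and far from those of the other group, with mean TPM at 0.318 and 0.380 times the LPS level. Cd63, a tetraspanin of lysosomes and exosomes, fell by less than 2-fold (limma log2 fold change -0.65, adjusted p = 1.2e-07), and shares 15.9% of its words with other transcripts, foremost with the pseudogene Cd63-ps.

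Mcoln1 encodes the calcium channel TRPML1, which is needed for the activation of TFEB by starvation. Mcoln1 had 75.2, 85.0, 72.3 and 65.7 TPM under LPS and 44.5, 65.3, 34.0 and 42.4 TPM under LPS + UDCA. The spread was wide, and LPS + UDCA replicate 2 nearly reached LPS replicate 4. It was lower with LPS + UDCA (limma log2 fold change -0.70, SE 0.17, adjusted p = 0.0047). Lamp2 lies on chromosome X from 38401357 to 38456454 and had 90.9, 82.8, 81.6 and 90.1 TPM under LPS and 87.1, 92.4, 96.1 and 102 TPM under LPS + UDCA. The groups overlapped and the difference did not pass FDR (limma log2 fold change 0.13, SE 0.058, adjusted p = 0.078, 95% interval -0.01 to 0.26). It passed, as higher, when TPM were rescaled to a common sum or quantile normalized. Lamp1 had 377 to 411 TPM with LPS and 396 to 412 TPM with LPS + UDCA, a difference of 0.04 on the log2 scale (95% interval -0.04 to 0.11). Its sign turned with median-of-ratios scaling, and with quantile normalization it was higher at FDR (0.14).

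**Figure D2:**
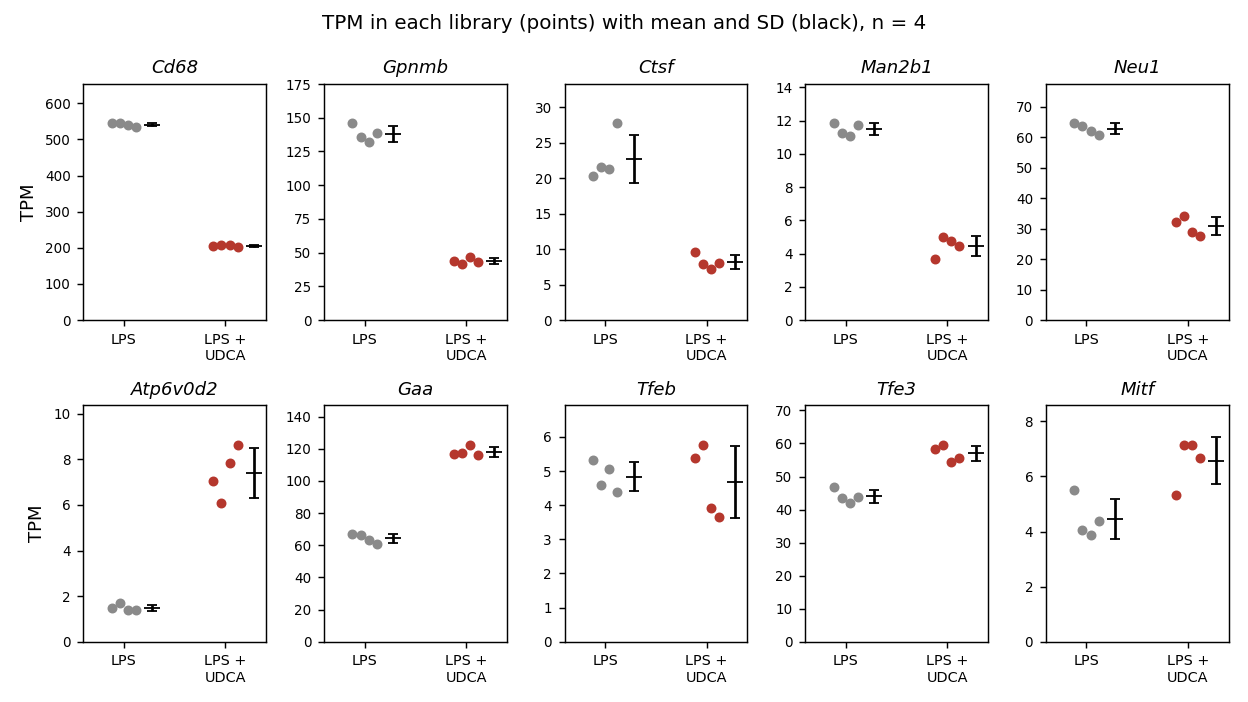
TPM of 10 genes in each of the 4 LPS (grey) and 4 LPS + UDCA (red) libraries, with the mean and SD of each group in black, on axes that start at 0. Cd68, Gpnmb, Ctsf, Man2b1 and Neu1 are lower and Atp6v0d2, Gaa and Tfe3 higher in all 4 LPS + UDCA libraries, while the groups overlap for Tfeb and Mitf.

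The V-ATPase genes moved in both directions. Of all 16, 6 were higher and 7 lower at FDR (37.5% and 43.8%), against 40.2% and 32.3% of all genes. The 6 V0 genes had 4 lower and 2 higher, and a difference between V0 and V1 was not tested. Atp6v0c, which encodes the proteolipid of the proton-carrying ring, lies on chromosome 17 from 24163866 to 24169702 and was with Ctsd the most abundant of the 47 genes under LPS. It had 1079, 1042, 1029 and 974 TPM under LPS and 609, 610.1, 586 and 562 TPM under LPS + UDCA. The groups did not overlap, and Atp6v0c fell (limma log2 fold change -0.80, SE 0.040, adjusted p = 2.1e-07). It shares 11.9% of its words with other transcripts, foremost with the pseudogene Atp6v0c-ps2. The second ring proteolipid gene, Atp6v0b, fell less (limma log2 fold change -0.35, adjusted p = 9.5e-06), and Atp6v0e, a small membrane subunit, was also lower (limma log2 fold change -0.63, adjusted p = 1.9e-07). Atp6v0a1, an isoform of the large a subunit that holds the proton path, rose (limma log2 fold change 0.52, adjusted p = 2.6e-05).

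Atp6v0d2 had the highest log2 fold change of the 47 genes and was the only one higher by more than 2-fold. It encodes an isoform of the d subunit, which couples the ring to the stalk, and is known from osteoclasts and macrophages. The gene lies on chromosome 4 from 19876841 to 19922605 and had 1.50, 1.68, 1.39 and 1.40 TPM under LPS and 7.06, 6.08, 7.85 and 8.64 TPM under LPS + UDCA. Every LPS + UDCA library was above every LPS library, at 4.96 times the mean TPM (limma log2 fold change 1.75, SE 0.11, adjusted p = 8.8e-07). Even so, the gene stayed the least abundant of the tested V-ATPase members in both groups. With a pseudocount of 5 in place of 1 its log2 fold change was under 1. The ubiquitous isoform Atp6v0d1 was far more abundant and slightly lower (limma log2 fold change -0.13, adjusted p = 0.017), a call lost with quantile normalization. Atp6v0d2 thus made up 0.840% to 1.01% of the d subunit TPM with LPS and 3.75% to 5.53% with LPS + UDCA, a share computed after the values had been seen.

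Of the 8 V1 genes, 4 were higher and 2 lower at FDR, shares near the 40.2% and 32.3% of all genes. The A and B subunits alternate in the ring that splits ATP, and their genes moved in opposite directions. Atp6v1a, the catalytic A subunit, lies on chromosome 16 from 44085402 to 44139705. It had 96.1, 95.2, 80.2 and 96.4 TPM under LPS and 138, 139, 165 and 167 TPM under LPS + UDCA, with LPS replicate 3 below the other LPS libraries, and rose (limma log2 fold change 0.72, SE 0.084, adjusted p = 4.8e-05). Atp6v1b2, the B subunit, lies on chromosome 8 from 69088646 to 69113711. It had 165, 171, 164 and 170.1 TPM under LPS and 122, 125, 117 and 123 TPM under LPS + UDCA and fell (limma log2 fold change -0.46, SE 0.034, adjusted p = 2.4e-06). In neither gene did the groups overlap, and their order turned. The ratio of Atp6v1a to Atp6v1b2, also computed after the values had been seen, was 0.550 ± 0.0410 (SD, n = 4) with LPS and 1.25 ± 0.153 with LPS + UDCA. The B1 gene, Atp6v1b1, was listed at 0 in all 8 libraries.

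Atp6v1h, a regulatory subunit, rose (limma log2 fold change 0.46, adjusted p = 3.6e-05), as did Atp6v1f (limma log2 fold change 0.22, adjusted p = 2.7e-05), a small subunit of the central stalk, by a smaller amount. Atp6v1g1, of the peripheral stalk, was slightly higher (limma log2 fold change 0.12, adjusted p = 0.016), a call lost with median-of-ratios scaling. Atp6v1g1 shares 24.0% and Atp6v1f 18.4% of its words with other transcripts. Atp6v1e1, the partner of the G subunit in that stalk, was lower (limma log2 fold change -0.21, adjusted p = 0.0018). Atp6v1c1 (0.09, 95% interval -0.03 to 0.22) and Atp6v1d (0.08, -0.05 to 0.21) did not pass FDR, though Atp6v1c1 did, as higher, with quantile normalization. Summed TPM were 2062 to 2192 TPM under LPS and 1421 to 1487 TPM under LPS + UDCA for the 6 V0 genes, and 1183 to 1237 TPM under LPS and 1312 to 1362 TPM under LPS + UDCA for the 8 V1 genes. The sum of V0 was thus lower, and that of V1 higher, in every LPS + UDCA library than in any LPS library. These sums are led by Atp6v0c and Atp6v0b and by Atp6v1f and Atp6v1g1 and are given as descriptions.

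The accessory proteins differed from each other as well. Atp6ap1, which helps the pump to assemble, lies on chromosome X from 74297097 to 74304721. It had 152, 156, 155 and 158 TPM under LPS and 102, 111, 99.8 and 107 TPM under LPS + UDCA, without overlap, and fell (limma log2 fold change -0.56, SE 0.040, adjusted p = 1.9e-06). Atp6ap2, the prorenin receptor, lies on chromosome X from 12587801 to 12617049. Its levels were 56.6, 46.3, 46.3 and 53.0 TPM under LPS and 45.1, 43.1, 50.1 and 52.6 TPM under LPS + UDCA. The groups overlapped and no difference was detected (limma log2 fold change -0.08, SE 0.085, adjusted p = 0.41, 95% interval -0.27 to 0.11).

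**Figure D3:**
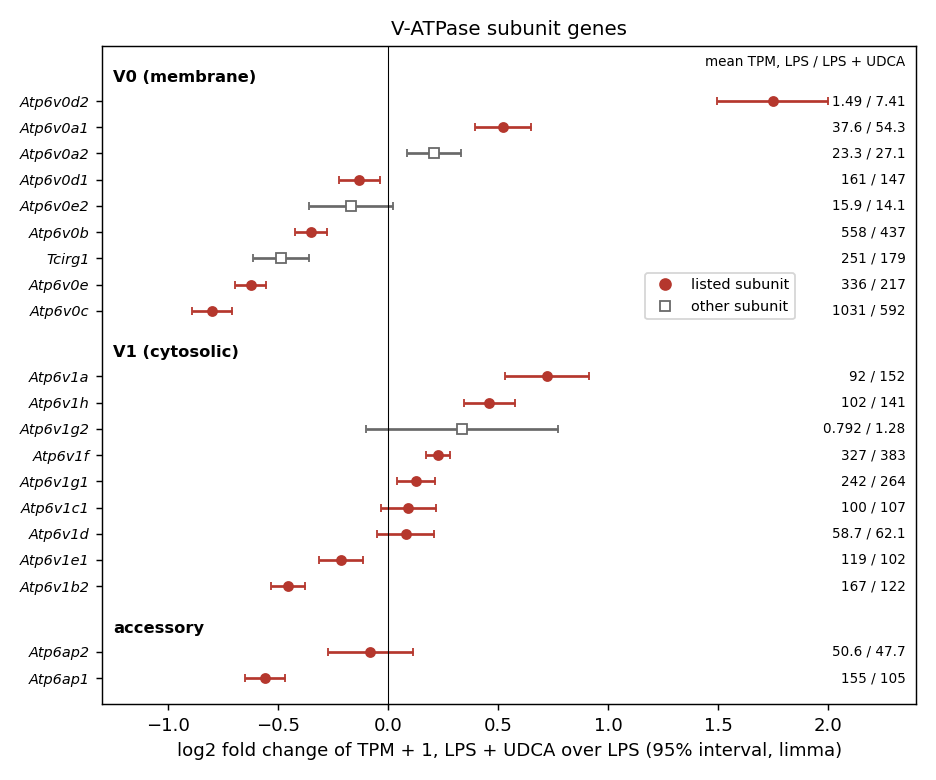
Log2 fold change of V-ATPase subunit genes, LPS + UDCA over LPS, on the log2(TPM + 1) scale with 95% intervals from limma (n = 4 and 4), with the mean TPM of each group at the right. Filled circles are the 16 genes of the set and open squares other subunits with a mean of at least 1 TPM. The ring proteolipids Atp6v0c (-0.80) and Atp6v0b (-0.35) lie left of 0 and the catalytic subunit Atp6v1a (0.72) right of it.

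Of 17 other V-ATPase subunits and assembly factors, 12 were tested, and 4 were higher and 5 lower at FDR. These shares (33.3% and 41.7%) were near those of all genes (40.2% and 32.3%). The a subunit of macrophage and osteoclast lysosomes, Tcirg1, was lower (limma log2 fold change -0.49, adjusted p = 4.3e-05), while Atp6v0a1 rose. Tcirg1 was the more abundant of the 2 in both groups, with 251 ± 8.92 TPM under LPS and 179 ± 14.1 TPM under LPS + UDCA (SD, n = 4). Past 2-fold were Dmxl1 (limma log2 fold change 1.01, adjusted p = 0.00018), which rose, and Rogdi (limma log2 fold change -1.38, adjusted p = 4.1e-05), which fell, both parts of the complex that puts V1 onto V0. Atp6v1b1, Atp6v1g3, Atp6v0a4, Atp6v1c2 and Atp6v1e2, isoforms of other tissues, were listed at or near 0 (at most 0.17 TPM) in every library.

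Among the other lumenal enzymes and cofactors, too, more genes were lower than higher. Of 30 tested, 17 were lower and 8 higher at FDR (56.7% and 26.7%, against the same background of 32.3% and 40.2%), with a median log2 fold change of -0.27. Ppt1, the palmitoyl-protein thioesterase, fell most (limma log2 fold change -1.71, adjusted p = 1.5e-09). Lgmn, the asparaginyl protease that trims cathepsins to their mature forms, fell past 2-fold as well (limma log2 fold change -1.51, adjusted p = 1.7e-09), and so did Galns, a sulfatase (limma log2 fold change -1.02, adjusted p = 1.6e-06). Ppt1 had 194 ± 4.19 TPM under LPS and 58.5 ± 1.83 TPM under LPS + UDCA and Lgmn 232 ± 2.10 TPM under LPS and 80.7 ± 2.51 TPM under LPS + UDCA. Idua, an iduronidase, and Acp5, the tartrate-resistant acid phosphatase, rose (limma log2 fold change 1.47, adjusted p = 1e-07, and limma log2 fold change 1.06, adjusted p = 2e-06). Idua overlaps Slc26a1 and Dgkq on the other strand.

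Lysosomal membrane proteins and transporters outside the set moved in both directions. Of 22 tested, 10 were higher and 6 lower at FDR (45.5% and 27.3%), close to the 40.2% and 32.3% of all genes, with a median of 0.19. Ctns, the cystine exporter, rose past 2-fold (limma log2 fold change 1.33, adjusted p = 5e-07), and Tpcn1, a cation channel, fell past it (limma log2 fold change -1.09, adjusted p = 3.9e-07). Of 9 tested genes for the sorting of lysosomal enzymes, 2 were higher and 4 lower at FDR, which is 66.7% called in either direction against 72.5% of all genes. Of the 4 tested cystatins, which inhibit cysteine cathepsins, 3 were lower and 1 higher, against 32.3% and 40.2% of all genes. The higher gene was Cstb, the most abundant of the 4 (limma log2 fold change 0.09, adjusted p = 0.037). It had 953 ± 39.6 TPM under LPS and 1014 ± 16.8 TPM under LPS + UDCA. Cst3, the secreted cystatin C, was about as abundant as the main cathepsins and fell by nearly 2-fold, from 834 ± 18.3 to 436 ± 8.21 TPM (limma log2 fold change -0.93, adjusted p = 1.1e-08). Stfa3, a stefin, fell past 2-fold (limma log2 fold change -2.72, adjusted p = 0.00013) from 10.9, 13.7, 12.4 and 5.87 TPM in the LPS libraries to 2.38, 0, 0.42 and 0.80 TPM in the LPS + UDCA libraries.

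Genes that act on the TFE factors through mTORC1, or through the phosphatase calcineurin, were more often higher than lower, as were all genes tested. The list of 22 genes also held the factor Tfec, which was listed at 0 and not tested. Of the 22 genes, 20 were tested, 11 were higher and 5 lower at FDR (55.0% and 25.0%, against 40.2% and 32.3% of all genes), and the median was 0.28. Fnip1, which forms with FLCN the activator of the RAG GTPases, was the only one past 2-fold. It had 3.83, 3.16, 2.49 and 3.32 TPM under LPS and 8.67, 9.25, 12.1 and 12.7 TPM under LPS + UDCA (limma log2 fold change 1.47, SE 0.14, adjusted p = 1.4e-05). Flcn itself rose less (limma log2 fold change 0.50, adjusted p = 1e-05), as did the RAG genes Rraga (0.34) and Rragc (0.30) and Rheb, the GTPase that switches mTORC1 on (limma log2 fold change 0.94, adjusted p = 1.6e-07). In the same list Tsc1 rose (limma log2 fold change 0.74, adjusted p = 6.4e-05) and Tsc2 fell (limma log2 fold change -0.57, adjusted p = 0.0013). The Ragulator subunits, which anchor the RAG GTPases to the lysosome, were lower in 4 of 5 cases, from -0.98 for Lamtor4 to -0.26 for Lamtor2, and Lamtor5 did not pass FDR (-0.06). Lamtor1 shares 30.2% of its words with other transcripts, foremost with the overlapping Lrrc51.

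**Figure D4:**
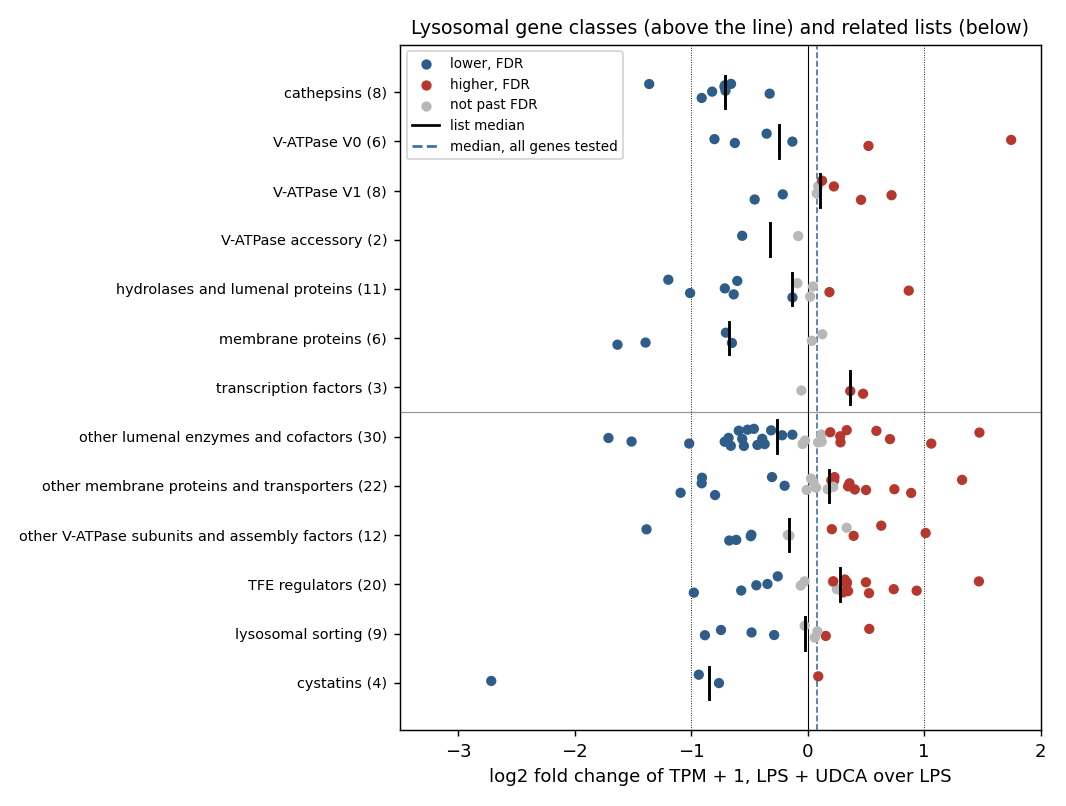
Log2 fold change of each tested gene, LPS + UDCA over LPS on the log2(TPM + 1) scale, for the classes of the set above the grey line and the related lists below it, with the number of tested genes in parentheses, blue and red for genes lower and higher at FDR under 0.05, grey for the others, and a black bar at the list median. The medians run from -0.85 for the cystatins and -0.71 for the cathepsins to 0.37 for the transcription factors, beside 0.08 over all genes tested.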

How the data were processed

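Libraries were made from total RNA of 8 J774A.1 samples with an Illumina TruSeq kit. By the study's methods they were prepared and sequenced by a company on an Illumina instrument. The authors analysed the reads on a commercial cloud platform. The table deposited by the authors gives TPM with 2 decimals, a unit inferred from column sums of 958918 to 977485. The submitters' processing notes name mm10, GRCm38 and Bowtie 0.12.2 with no role. The counting program and its use of strand are not given in the sources used here. Strand was not checked in reads here, so overlapping genes on either strand may share reads.

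The methods state thresholds (fold change of at least 2, FDR under 0.05) for the sequencing and, for statistics in general, a one-way analysis of variance with Tukey's test. They name no test for the sequencing in particular. Genes were kept when their mean over the 8 libraries was 1 TPM or more, which left 11796. Their log2(TPM + 1) was fitted with lmFit and eBayes, with a trend, in limma 3.58.1 (R 4.3.3), and p-values were adjusted by Benjamini-Hochberg over all 11796. Fold changes on this scale understate the change of low genes. The fit was tested on simulated data with known changes. These were larger than the changes of most of the genes here, so smaller changes were not covered. The 47 genes, the related lists and the tests were chosen with earlier results of these data known. Full values were given for genes past both thresholds, the highest and lowest of each class, the transcription factors and the 3 most abundant, and of each related list at most the 3 highest and 3 lowest genes past both thresholds were named by rule; others named there were chosen after their values were seen. Positions are from GENCODE M21 (GRCm38), where all 47 genes were found, and promoters from RefSeq (GRCm38.p6). Of the 48 promoter windows, 44 ended in 30 bases found in a transcript of their gene. Shared words are 31-base stretches of a gene's transcripts that occur, on either strand, in transcripts of another gene. Figures were drawn with Python 3.11.15 and matplotlib 3.10.9. Alternatives covered scaling, pseudocount, filter, a replicate block, the variance trend and leaving out each library.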

Additional observations from a re-analysis of the deposited data

Results flagged for a closer look

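Of 88 groups of 4 TPM values (44 genes, each in the LPS and the LPS + UDCA libraries), 1 had an outermost library whose gap to its neighbour exceeded Dixon's 95% critical value, where chance gives about 4.4. For Atp6v1a, LPS replicate 3 was lowest at 80.2 TPM, below the other LPS libraries at 95.2 to 96.4 TPM (gap over range 0.927). Without LPS replicate 3 the log2 fold change of Atp6v1a was 0.66, against 0.72 with it.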

How the results depend on the processing

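Under the alternatives the 25 lower and 10 higher calls at FDR stayed between 23 and 26 and between 8 and 14. The median log2 fold change of the 44 genes was -0.27, and -0.35 with median-of-ratios scaling, -0.17 with quantile normalization and -0.21 with all genes above 0 TPM, which adds the 3 low cathepsins. Leaving out each library moved it between -0.28 and -0.26. With a pseudocount of 5, 0 genes were higher and 3 lower past 2-fold (Cd68, Ctsf and Gpnmb), against 1 and 5, and 889 of all genes passed, against 2023, since a larger pseudocount shrinks the change of low genes. Some values that did not pass FDR changed sign: Lipa (-0.0320), Hexa (-0.0577) and Lamp1 (-0.0433) with median-of-ratios scaling, Grn (0.0806) with quantile normalization, and Tfeb, which ran from -0.15 to 0.0355 when a library was left out. Of these, Hexa (0.12) and Lamp1 (0.14) were higher at FDR with quantile normalization, and Grn (-0.17) was lower with median-of-ratios scaling. The groups share replicate numbers, and deviations correlated above 0.1 in 3 of 4 same-numbered pairs (0.12, 0.12 and 0.15, with -0.04 for replicate 3). Their mean was 0.088, against -0.029 for the 12 other pairs, which ran from -0.14 to 0.16. LPS replicate 1 correlated best with LPS + UDCA replicate 3 (0.16). With 4 same-numbered pairs these values cannot settle pairing, and the main fit did not use it. With the replicate block, 1 gene was higher and 5 lower past 2-fold, 10 and 25 at FDR, and 2034 of all genes passed. The depth of the libraries is unknown, so no limit of detection could be set for genes near 0.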
